A study of Homo sapiens with 30 samples.

Results

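Genes of the unfolded protein response and of the integrated stress response were followed in BEAS-2B cells dosed with whole birch pollen or with air alone. The genes were chosen by name, as a fixed list of 35 symbols looked up in the gene name column of the arrays. All 35 were found, on 46 probes out of 58201 probes other than controls, and 26 of them had a single probe. They fall into 4 sensors and transducers, ATF4 itself, 11 ATF4 targets, 14 chaperones and folding factors of the endoplasmic reticulum (ER), and 5 genes of ER-associated degradation and the translocon.

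When unfolded proteins gather in the ER, 3 membrane sensors respond. ERN1 (IRE1) splices the mRNA of the transcription factor XBP1, ATF6 is cut to release a transcription factor, and EIF2AK3 (PERK) phosphorylates the initiation factor eIF2. XBP1 and ATF6 act on genes for chaperones and for ER-associated degradation, which draws misfolded proteins out of the ER. Phosphorylated eIF2 lowers translation in general and favours that of ATF4, which acts on genes for amino acid supply and stress signalling. Other eIF2 kinases reach ATF4 without the ER, so that the ATF4 branch and the chaperone branch can be followed apart. The sensors are switched on as proteins, and neither XBP1 splicing nor phosphorylation was measured by these arrays.

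Short elements tied to the branches were searched in the promoters, and stretches with a match are printed below. The genes were sorted by their known roles, so the shares describe these windows and carry no test of a difference between the branches. Promoters of RefSeq (GRCh38.p14, 250 bases before to 50 after the start of each gene) were at hand for 34 of the 35 genes, all but PDIA3. The ER stress response element was searched as CCAAT, 9 bases, then CCACG, a shorter element bound by XBP1 and ATF6 as TGACGTGG, and the ATF4 element as TGATGNAA, where N is any base, on both strands; the first of these was defined on chaperone promoters such as these. The first element was in 5 of 13 chaperone promoters and in 0 of 11 ATF4 target promoters, against 27 of all 35116 promoters (0.0769%). TGATGNAA was in 3 of 11 ATF4 target promoters and in 0 of 13 chaperone promoters, against 3.62% of all promoters. Most promoters of either branch thus held no match to the element of their own branch. It was also in 1 of 5 promoters of ER-associated degradation and the translocon, that of HERPUD1, which is not printed. TGACGTGG was in HYOU1 alone among the 34 genes, against 0.729% of all promoters. Stretches of 10 promoters that hold a match before the start are given 5′ to 3′ on the strand of the gene, with the matched letters in capitals. On the minus strand of the gene the ER element reads CGTGG, 9 bases, then ATTGG.

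HSPA5 (chr9:125241364-125241473, minus strand): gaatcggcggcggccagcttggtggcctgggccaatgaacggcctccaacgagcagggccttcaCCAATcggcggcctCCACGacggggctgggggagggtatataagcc
HSP90B1 (chr12:103930200-103930349, plus strand, with 2 copies in opposite orientation): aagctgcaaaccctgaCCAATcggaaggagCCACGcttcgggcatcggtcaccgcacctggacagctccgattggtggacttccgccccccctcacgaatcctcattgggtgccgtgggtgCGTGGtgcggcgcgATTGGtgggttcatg
CRELD2 (chr22:49918514-49918603, plus strand): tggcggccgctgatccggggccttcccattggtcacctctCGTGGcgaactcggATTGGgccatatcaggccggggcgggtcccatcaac
CALR (chr19:12938369-12938448, plus strand): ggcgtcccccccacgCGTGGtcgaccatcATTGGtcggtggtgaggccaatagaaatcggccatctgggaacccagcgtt
CANX (chr5:179698759-179698828, plus strand): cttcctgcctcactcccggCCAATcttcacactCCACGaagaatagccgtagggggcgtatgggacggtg
XBP1 (chr22:28800580-28800659, minus strand): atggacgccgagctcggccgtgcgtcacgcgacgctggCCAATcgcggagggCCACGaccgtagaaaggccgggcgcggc
SERP1 (chr3:150546672-150546741, minus strand): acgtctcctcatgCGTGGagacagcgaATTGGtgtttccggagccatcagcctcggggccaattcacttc
HYOU1 (chr11:119057356-119057425, minus strand, TGACGTGG): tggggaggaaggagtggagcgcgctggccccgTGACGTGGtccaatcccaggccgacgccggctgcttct
ASNS (chr7:97872439-97872508, minus strand, ATF4 element): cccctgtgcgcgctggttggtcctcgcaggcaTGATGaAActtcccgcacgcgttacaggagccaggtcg
CHAC1 (chr15:40953231-40953300, plus strand, ATF4 element reversed): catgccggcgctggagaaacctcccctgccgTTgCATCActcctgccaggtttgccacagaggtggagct

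BEAS-2B cells come from human bronchial epithelium and were made immortal in culture, and a single line cannot stand for the epithelium of a donor. The cells were grown at the air-liquid interface. For the pollen cultures 10 mg of whole birch pollen was dispersed into a sedimentation chamber, and per the paper part of it was lost to the chamber. The other cultures had the same handling without pollen (mock, labelled air). RNA was taken from 3 cultures per exposure and time, on 30 one-colour Agilent arrays in all. The times were 10 min and 55 min, then 2h25 min and 6h50 min, and last 24 h. Mock cells share the air-liquid interface and the chamber with the pollen cells. Since all RNA of a culture was pooled, fewer responding cells and less RNA per cell cannot be told apart.

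Values are log2 spot signals after subtraction of the 75th percentile of each array, so that 0 stands for that percentile and 1 for a doubling over it. Levels of different genes cannot be compared, since each is read by its own probe. Probes of all genes (32100) were tested together with limma, and a gene was called where its Benjamini-Hochberg adjusted p was under 0.05 and its change at least 1.1-fold. The probe of all 35 genes was well above background on all arrays, and 45 of the 46 probes were tested. The 75th percentile lay between 578 and 2111 intensity units. The epithelial markers KRT5, KRT7, KRT8, KRT18, KRT19, CDH1 and EPCAM were well above background on 30 of 30 arrays. So were the mesenchymal markers VIM, CDH2 and COL1A1 and the leukocyte marker PTPRC, while mesenchymal COL3A1 was on 0. The leukocyte marker CD3E was on 17 arrays, and of the endothelial markers VWF was on 28 and PECAM1 on 0. This flag therefore does not tell cell types apart. All 6 arrays of 6h50 min were hybridised on a slide of their own and scanned in a separate session, so that steps into and out of 6h50 min cannot be told apart from slide and scan. The comparison of pollen with mock at 6h50 min lies within that slide. The array of 55 min pollen replicate 1 has another probe layout and its own slide, and lacks the probe of ERN1.

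Whether pollen moved these genes beyond the handling was asked at each time. No gene of the 35 differed between pollen and mock past the threshold at any of the 5 times. Over all probes 0% were called at 10 min, 0.00312% at 55 min, 0.0343% at 2h25 min, 0.0436% at 6h50 min and 0.00312% at 24 h, so that a count of 0 among 35 lies near that background. An unadjusted p under 0.05 was reached by 0 of the 35 genes at 10 min, 55 min, 2h25 min and 24 h and by 4 at 6h50 min, against 1.83%, 5.08%, 2.98%, 3.61% and 7.44% of all probes. The median difference of the 35 genes from mock was -0.01, 0.07, 0.05, -0.04 and -0.04 in order of time on the log2 scale, against 0.01, -0.01, -0.03, 0.00 and 0.00 for all probes.

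**Figure D1:**
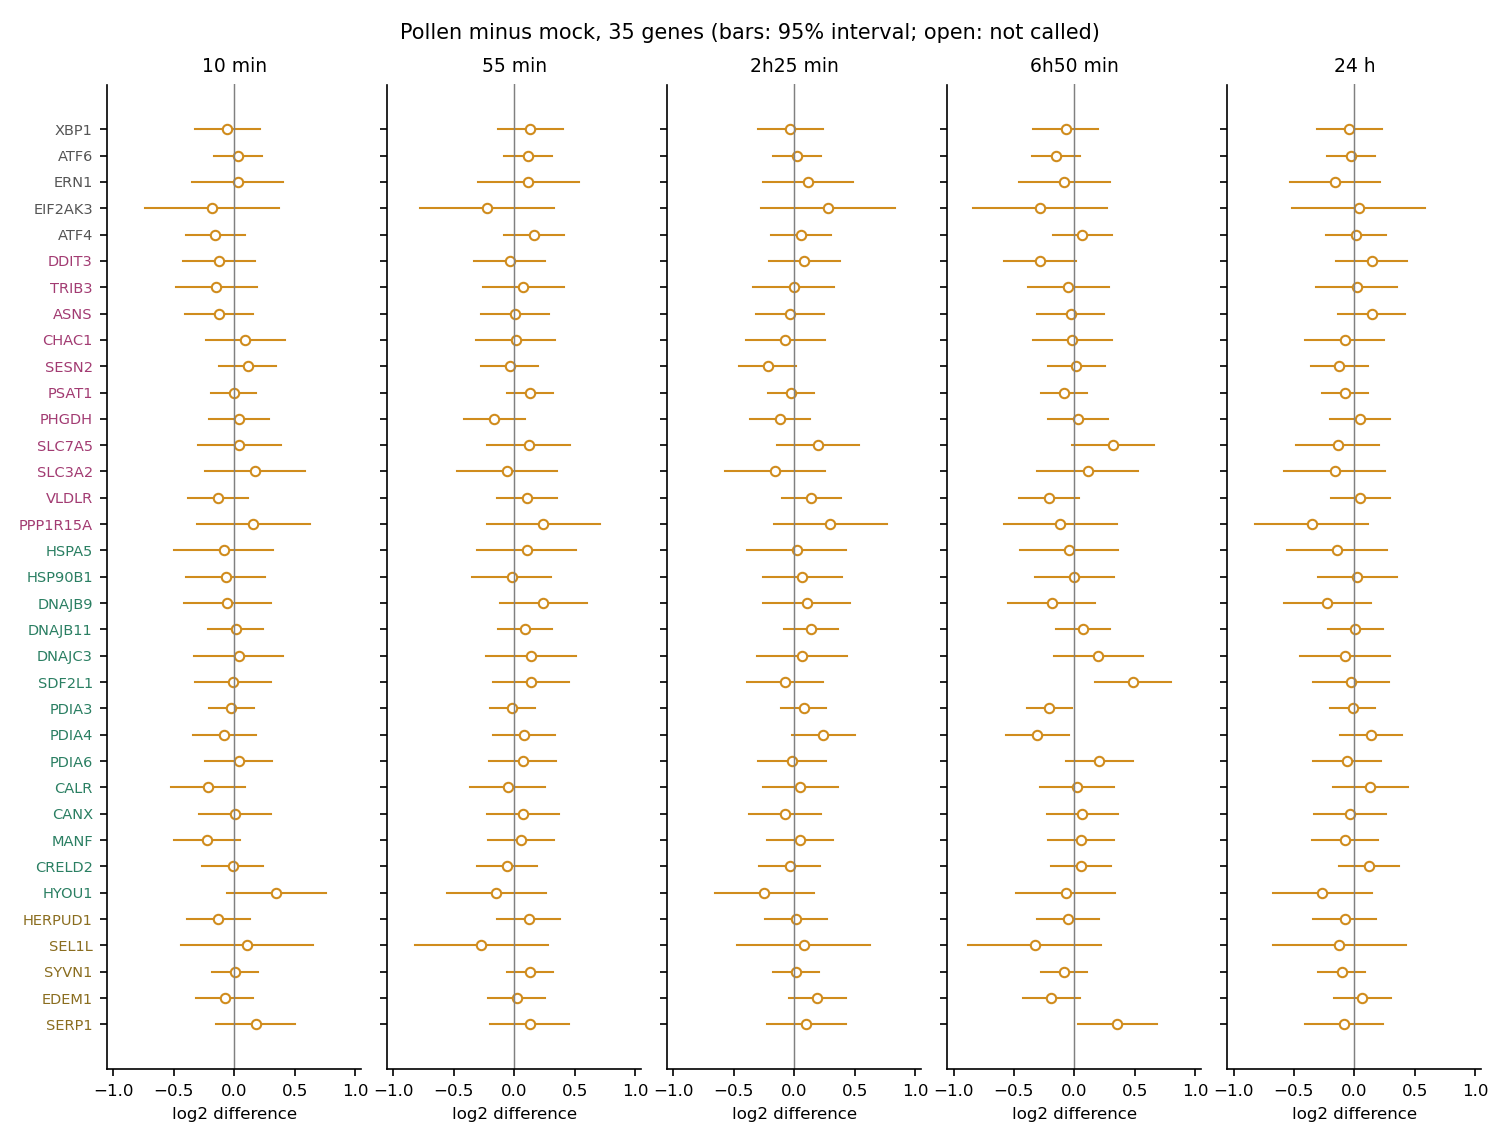
Difference between pollen and mock in log2 units for each of the 35 genes (vertical axis, coloured by role: grey, sensors and ATF4; purple, ATF4 targets; green, ER chaperones; brown, ER-associated degradation and translocon) at the 5 times. Points are fitted differences, bars their 95% intervals and open points genes that were not called; no point is filled, and the intervals of SDF2L1, SERP1, PDIA3 and PDIA4 at 6h50 min lie apart from 0.

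The intervals give the precision of this fit for each gene taken singly, not for all genes and times together. The median 95% interval reached 0.30 log2 units to either side of the estimate at each time. In this fit all 35 intervals lay inside a 2-fold change in either direction at every time. With 2 other ways of processing, given below, SDF2L1 differed by 0.87 ± 0.14 and 0.81 ± 0.12 (SE) at 6h50 min. The widest upper bound was 0.83 at 2h25 min, for EIF2AK3, the kinase that phosphorylates eIF2 under ER stress, which is a 1.78-fold rise. The lowest bound was -0.88 at 6h50 min, for SEL1L, a subunit of the ER-associated degradation ligase, which is a 1.84-fold fall. Its estimate was -0.33 there, while its dimmer probes gave 0.68 and 0.02.

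Away from 6h50 min the differences were small and none was called. At 10 min HYOU1, a nucleotide exchange factor of the chaperone HSPA5, differed by 0.35 ± 0.20 (SE, 3 arrays per group, limma adjusted p = 1), with mock arrays at -2.05, -2.08 and -2.37 and pollen arrays at -1.50, -1.62 and -2.34. The pollen array at -2.34 lay among the mock arrays. The sign of HYOU1 was the opposite at 2h25 min, with -0.25 ± 0.20 (limma adjusted p = 1), where the mock arrays at -1.50, -1.57 and -1.19 all lay above the pollen arrays at -1.82, -1.59 and -1.59. SESN2, a stress-induced inhibitor of mTORC1 signalling, did not overlap at 2h25 min either, with mock arrays at 0.63, 0.52 and 0.62 and pollen arrays at 0.38, 0.38 and 0.34, a difference of -0.22 ± 0.11 (limma adjusted p = 1). These were the only 2 of the 35 genes whose groups did not overlap at that time. Such genes were found at the other times as well, 1 at 10 min (TRIB3), 1 at 55 min (ATF6) and 2 at 24 h (ERN1 and CALR). The share of all probes without overlap was not counted, so these counts have no background beside them and no result is read from them. PPP1R15A, the subunit that directs a phosphatase to eIF2 and so reverses the block of translation, differed most in size at 2h25 min, with 0.30 ± 0.22 and overlapping arrays. At 55 min the widest differences were -0.28 ± 0.26 for SEL1L and 0.24 ± 0.17 for DNAJB9, a co-chaperone of HSPA5, and both overlapped. The pollen arrays of SEL1L read -0.67, 0.23 and 0.69, the lowest being replicate 1, which has the other probe layout. The dimmer probes of SEL1L gave 0.01 and 0.11. ATF4 itself was 0.17 ± 0.12 from mock at 55 min (limma adjusted p = 0.927), with mock arrays at 7.18, 7.35 and 7.31 and pollen arrays at 7.34, 7.48 and 7.50. At 24 h PPP1R15A was -0.35 ± 0.22 from mock (limma adjusted p = 1), lower in 3 of 3 pairs of equal replicate number. Its arrays overlapped, at 2.68, 2.78 and 3.02 in mock and 2.27, 2.47 and 2.69 in pollen cells.

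At 6h50 min SDF2L1, a member of the HSPA5 chaperone complex, stood highest. Its probe lies at chr22:21998511-21998570 on hg19. The mock arrays read 5.27, 5.46 and 4.87 and the pollen arrays 5.53, 5.63 and 5.89, so that the groups did not overlap and pollen was higher in 3 of 3 pairs. The difference was 0.48 ± 0.15 (SE), or 1.40-fold, with a 95% interval from 0.17 to 0.80 and a limma adjusted p of 0.274. The spot of SDF2L1 on mock replicate 1 lay in a dim area of that array, and without spots of dim areas the difference was 0.52 ± 0.17 (limma adjusted p = 0.588). The value depended on the processing. With the mean spot brightness in place of the processed signal, normexp background correction and quantile normalization, changed together, the difference was 0.87 ± 0.14 (limma adjusted p = 0.00853), and in the deposited table of log2 values it was 0.81 ± 0.12 (limma adjusted p = 0.0029). In the deposited table the mock arrays read 15.3, 15.6 and 15.6 and the pollen arrays 16.2, 16.3 and 16.5. Mock replicate 3 was the lowest of the mock arrays by processed signal and the highest in the deposited table. SDF2L1 was the only one of the 35 genes called in any of 82 alternative fits of pollen against mock, and only in these 2.

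The other 3 genes with an unadjusted p under 0.05 at 6h50 min were SERP1, PDIA4 and PDIA3. SERP1 protects newly made membrane proteins at the translocon and was chosen for the list with results of these arrays known, so that its direction is no independent evidence. Its mock arrays read 1.69, 2.02 and 2.48 and its pollen arrays 2.40, 2.30 and 2.57, with one mock array among the pollen arrays. The difference was 0.36 ± 0.16 (SE, limma adjusted p = 0.606). The spots of mock replicates 1 and 2 lay in dim areas, and without them, with 1 mock array left whose spread was assumed equal to that of the other groups, the difference was -0.06 ± 0.18 (limma adjusted p = 1). DNAJC3, a co-chaperone of HSPA5 whose spot on mock replicate 1 also lay in a dim area, differed by 0.20 ± 0.18 with that spot and by -0.02 ± 0.17 without it (limma adjusted p = 0.9498 and 0.9998). PDIA4 was -0.31 ± 0.12 from mock (limma adjusted p = 0.522), with mock arrays at 2.56, 2.61 and 2.52 above the pollen arrays at 2.19, 2.27 and 2.31. PDIA3, another disulfide isomerase of the ER, was -0.21 ± 0.09 from mock (limma adjusted p = 0.591), with mock arrays at 3.24, 3.45 and 3.58 and pollen arrays at 3.20, 3.16 and 3.30, which overlapped. A second, dimmer probe of PDIA3 gave 0.04. DDIT3 (CHOP), the ATF4 target linked to cell death, followed at -0.28 ± 0.14 (limma adjusted p = 0.7001), with mock arrays at 2.37, 2.38 and 2.25 and pollen arrays at 2.07, 2.10 and 1.98. SLC7A5, the light chain of an amino acid transporter and also an ATF4 target, differed the other way, by 0.32 ± 0.17 (limma adjusted p = 0.7151), with mock arrays at 3.49, 3.59 and 3.77 and pollen arrays at 3.93, 3.96 and 3.93. SDF2L1, PDIA4, DDIT3 and SLC7A5 were the 4 genes whose groups did not overlap at 6h50 min. As at 2h25 min, the share of all probes without overlap was not counted, so no result is read from this count.

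**Figure D2:**
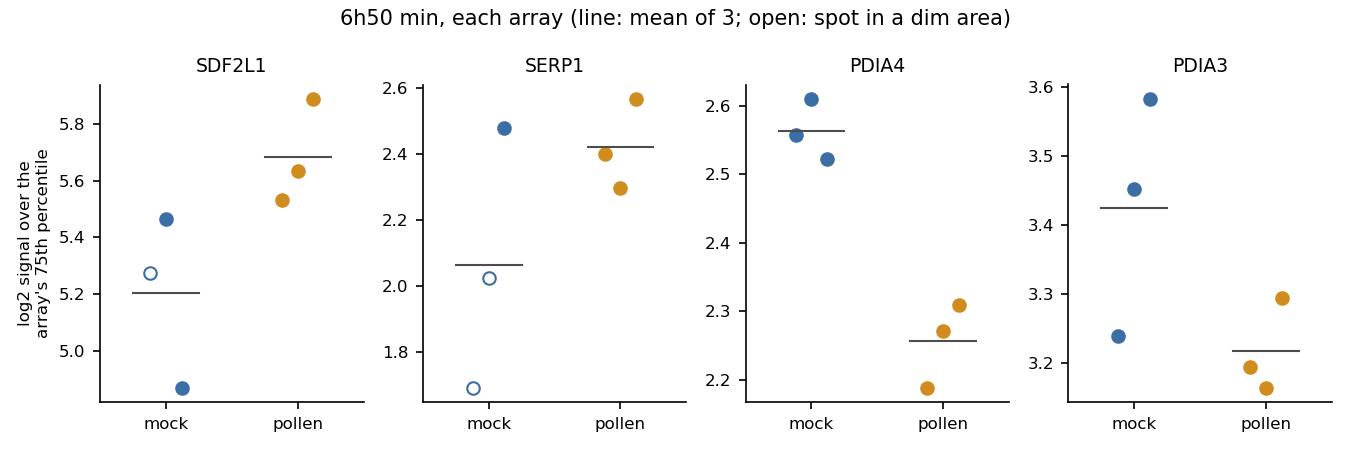
The 4 genes with an unadjusted p under 0.05 at 6h50 min, with each mock and pollen array as a point on the log2 scale relative to the 75th percentile of the array; horizontal lines are means of 3 arrays and open points are spots in dim areas of an array. SDF2L1 and PDIA4 do not overlap between the groups, and the low mean of SERP1 in mock cells rests on 2 open points.

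The difference in the effect of pollen between neighbouring times, and between 24 h and 2h25 min, was tested in the same model. None of the 35 genes passed for 55 min against 10 min (0% of all probes called), 2h25 min against 55 min (0%), 6h50 min against 2h25 min (0.00312%), 24 h against 6h50 min (0%) or 24 h against 2h25 min (0.00623%). The smallest unadjusted p in the last of these was that of PPP1R15A, whose change was -0.65 ± 0.32 from that in mock cells (limma adjusted p = 1).

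Across the times the cells changed in both exposures. Between 10 min and 55 min and between 55 min and 2h25 min none of the 35 genes was called in mock or in pollen cells, against 0.187% and 0.0156% of all probes in mock and 0.841% and 0.202% in pollen cells. Among the ATF4 targets CHAC1 and PPP1R15A had the largest changes in these steps, but changes of that size were not confined to this branch. The mean of the chaperone HYOU1 in mock cells was -2.17 ± 0.18 at 10 min and -1.63 ± 0.21 at 55 min (SD, n = 3), without overlap. In pollen cells its means were -1.82 ± 0.46 and -1.78 ± 0.07. CHAC1, an enzyme that degrades glutathione, read 3.55, 3.56 and 3.71 in mock cells at 10 min, 3.26, 3.22 and 3.10 at 55 min, and 3.55, 4.07 and 3.88 at 2h25 min. Its mean was -0.41 ± 0.16 at 55 min against 10 min (limma adjusted p = 0.348) and 0.64 ± 0.16 at 2h25 min against 55 min (limma adjusted p = 0.386), with no overlap between groups in either step. In pollen cells the same steps were -0.49 ± 0.16 (limma adjusted p = 0.141) and 0.55 ± 0.16 (limma adjusted p = 0.223). A second, dimmer probe of CHAC1 gave -0.30 and 0.63 in mock and -0.67 and 0.59 in pollen cells and was not called. PPP1R15A was 0.68 ± 0.22 at 55 min against 10 min in mock cells (limma adjusted p = 0.264) and 0.76 ± 0.22 in pollen cells (limma adjusted p = 0.111), with no overlap between the times in either exposure.

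Steps into and out of 6h50 min gave many calls, which cannot be told apart from slide and scan. In mock cells 8 of the 35 genes were called higher and 4 lower at 6h50 min than at 2h25 min, where 9.9% of all probes were called higher and 22.6% lower. At 24 h against 6h50 min 11 were called higher and 2 lower, where 24.7% and 15.9% of all probes were. In pollen cells the counts were 7 higher and 5 lower at 6h50 min, against 11.1% and 19.9% of all probes, and 7 higher and 2 lower at 24 h, against 21.8% and 14.5%. In mock cells the genes called at 6h50 min in either direction came to 6 without 2h25 min replicate 2 and 7 without 6h50 min replicate 1, and those at 24 h to 6 without 6h50 min replicate 1, 7 without 24 h replicate 1 and 8 without 24 h replicate 2. For these fits the share of all probes called was not counted. VLDLR, a lipoprotein receptor and ATF4 target, had its lowest means at 6h50 min, -1.21 ± 0.19 in mock and -1.42 ± 0.06 in pollen cells (SD, n = 3), and its highest at 24 h, -0.41 ± 0.12 and -0.37 ± 0.14. DNAJB11, a co-chaperone of HSPA5, and MANF, a secreted ER stress protein, had their highest means at 6h50 min, 3.45 ± 0.12 and 5.49 ± 0.09 in mock cells. ERN1 was highest at 6h50 min as well, with 2.02 ± 0.16 in mock and 1.94 ± 0.04 in pollen cells.

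Between 2h25 min and 24 h, which were scanned in one session and share a slide, 8 of the 14 ER chaperones were called higher in mock and 6 in pollen cells and none lower, while ATF4 targets were called in both directions. In mock cells 15 of the 35 genes were called higher and 2 lower at 24 h, where 12.5% of all probes were called higher and 14.9% lower. In pollen cells 9 were called higher and 2 lower, where 11.2% and 11.8% of all probes were. The same 9 and 2 genes were called in both exposures, and a further 6 in mock cells only. The median change of the 35 genes was 0.29 in mock and 0.21 in pollen cells on the log2 scale, against -0.07 and -0.02 for all probes. The 2h25 min arrays of replicates 1 and 2 lay on another slide than those of 24 h. With the slide as a block 11 genes were called higher and 2 lower in mock cells, and 4 and 2 in pollen cells. The share of all probes called was not counted for this fit or for the other alternative fits. Whether the excess over that share remained in them was not tested. Within the shared slide, where 1 array of 2h25 min remained per exposure and was assumed to vary like the other groups, 5 and 2 were called in mock and 2 and 1 in pollen cells. The 28 changes called kept their direction in all 17 alternative fits of each, but 4 of the 28 were called in all 17, and 9 lost their call with the slide block. The fewest fits that called a change were 6 of 17 for DNAJB9 in pollen cells, 7 for DNAJC3 in mock and VLDLR in pollen cells, and 9 for SESN2 in mock and PPP1R15A in pollen cells. Without 24 h replicate 1 the genes called in either direction came to 11 in mock and 5 in pollen cells, and without 2h25 min replicate 3 to 6 in pollen cells.

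**Figure D3:**
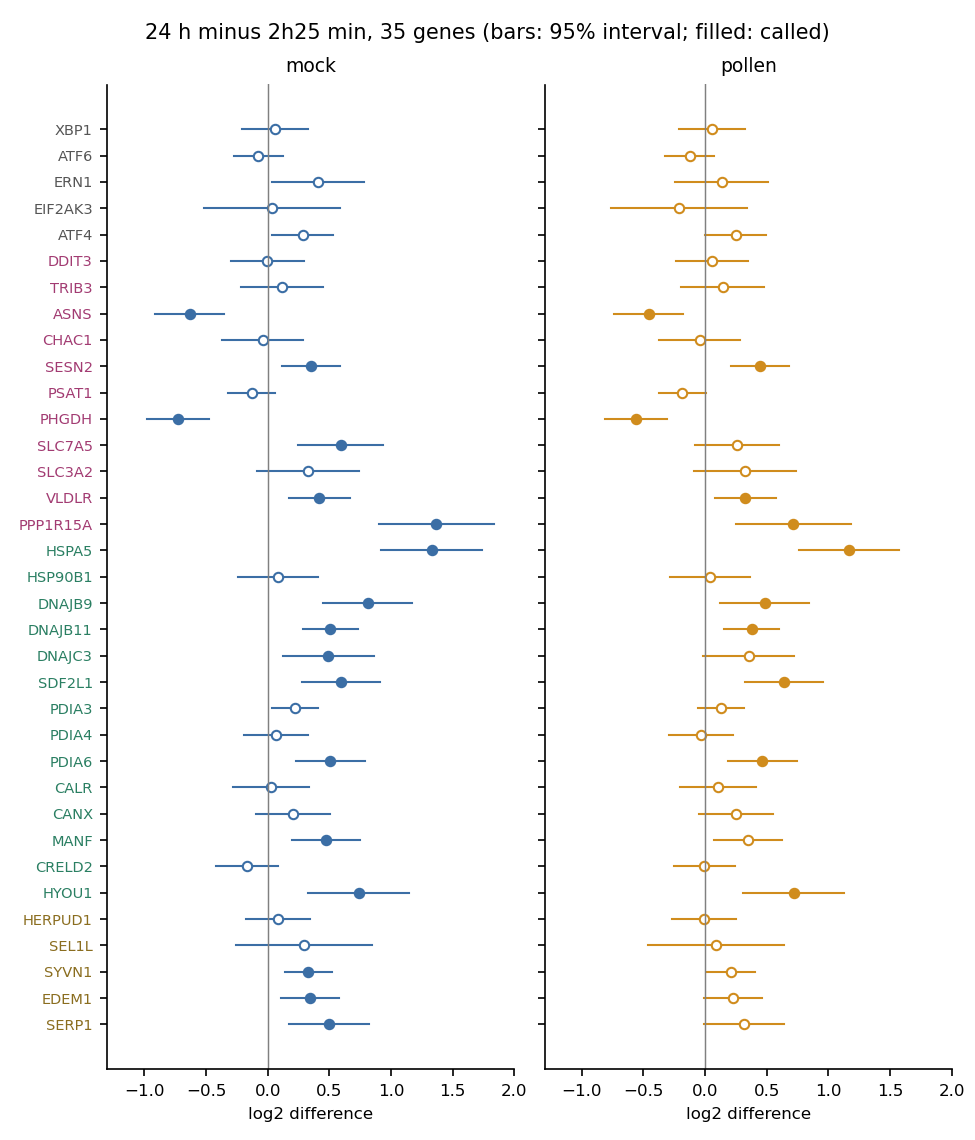
Change from 2h25 min to 24 h in log2 units for each of the 35 genes in mock and pollen cells, with gene names coloured by role as above. Points are fitted changes, bars their 95% intervals and filled points called genes; PPP1R15A and HSPA5 lie farthest to the right in mock cells and HSPA5, followed by HYOU1 and PPP1R15A, in pollen cells, and PHGDH and ASNS are the only filled points to the left of 0.

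HSPA5 (BiP), the main chaperone of the ER lumen and a classical target of the unfolded protein response, rose most among the chaperones. Its probe lies at chr9:127997149-127997208 on hg19. Mock arrays read 1.32, 1.40 and 1.46 at 10 min, 1.12, 1.32 and 1.78 at 55 min, 2.09, 1.32 and 1.81 at 2h25 min, 2.62, 2.38 and 2.46 at 6h50 min and 3.21, 3.13 and 2.87 at 24 h. Pollen arrays read 1.11, 1.45 and 1.36 at 10 min, 1.42, 1.39 and 1.73 at 55 min, 2.14, 1.35 and 1.79 at 2h25 min, 2.36, 2.31 and 2.65 at 6h50 min and 3.07, 3.00 and 2.72 at 24 h. Every array of 24 h lay above every array of the first 3 times. The arrays of 2h25 min replicate 2 were the lowest of their group in both exposures. From 2h25 min to 24 h HSPA5 rose by 1.33 ± 0.20 (SE), or 2.52-fold, in mock cells (limma adjusted p = 2.88e-05) and by 1.17 ± 0.20, or 2.25-fold, in pollen cells (limma adjusted p = 0.000178). It was called in all 17 alternative fits in both exposures.

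**Figure D4:**
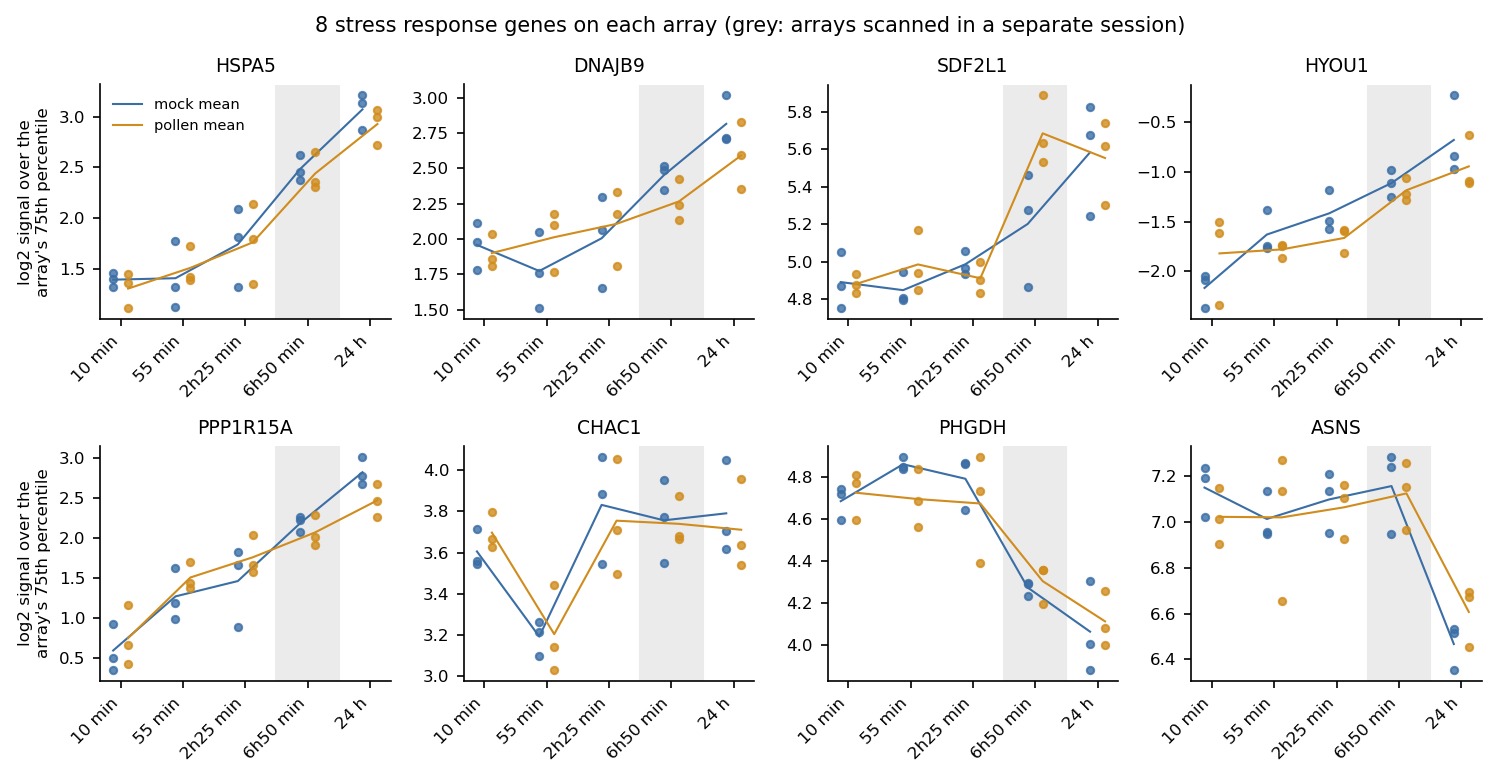
Log2 signal of 8 genes relative to the 75th percentile of each array (vertical axes, scaled per gene) at the 5 times, with each array as a point and the means joined by lines, blue for mock and orange for pollen. The grey band marks the arrays that were scanned in a separate session; HSPA5 and PPP1R15A climb and PHGDH and ASNS end low in both exposures, and mock and pollen arrays lie among each other at most times.

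With the slide as a block 6 of the 8 chaperones called in mock cells kept their call, without HYOU1 and DNAJC3, and 3 of the 6 in pollen cells, without DNAJB9, HYOU1 and PDIA6. DNAJB9 rose by 0.81 ± 0.17 in mock (limma adjusted p = 0.00119) and 0.48 ± 0.17 in pollen cells (limma adjusted p = 0.0477). HYOU1 rose by 0.74 ± 0.20 and 0.72 ± 0.20 (limma adjusted p = 0.0072 and 0.0105); with the slide block it was 0.58 and 0.56 and was not called. SDF2L1 rose by 0.60 ± 0.15 and 0.64 ± 0.15 (limma adjusted p = 0.00477 and 0.00356), and its arrays of 24 h, at 5.83, 5.68 and 5.25 in mock and 5.74, 5.62 and 5.31 in pollen cells, all lay above those of 2h25 min. DNAJB11 and the disulfide isomerase PDIA6 rose by 0.51 in mock cells each and by 0.38 and 0.46 in pollen cells. MANF rose by 0.47 and DNAJC3, a co-chaperone that also restrains EIF2AK3, by 0.49 in mock cells, and neither was called in pollen cells, with 0.35 each.

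The other 6 chaperones were not called in either exposure. They are HSP90B1, the ER member of the HSP90 family, the lectin chaperones CALR and CANX, the secreted protein CRELD2, and PDIA3 and PDIA4. Their changes lay between -0.17 for CRELD2 and 0.22 for PDIA3 in mock cells and between -0.03 for PDIA4 and 0.25 for CANX in pollen cells. A second, dimmer probe of CANX was called higher in both exposures, with 0.51 and 0.39. Of the 5 chaperones whose promoter window held the ER stress response element, printed above, 1 was called in each exposure, HSPA5, and their median change was 0.08 in mock and 0.11 in pollen cells. Of the 8 without these letters 7 were called in mock and 5 in pollen cells, with medians of 0.51 and 0.42. These shares describe the named windows and carry no test.

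Of the 11 ATF4 targets 4 were called higher and 2 lower in mock cells, beside 12.5% and 14.9% of all probes. In pollen cells 3 were called higher and 2 lower, beside 11.2% and 11.8%. PPP1R15A rose by 1.37 ± 0.22, or 2.58-fold, in mock (limma adjusted p = 8.77e-05) and by 0.72 ± 0.22, or 1.64-fold, in pollen cells (limma adjusted p = 0.024). With the slide block its call remained in mock cells, with 1.31, and was lost in pollen cells, with 0.66. Its arrays of 2h25 min read 1.82, 0.89 and 1.67 in mock and 2.03, 1.58 and 1.66 in pollen cells, and all arrays of 24 h lay above them. SESN2 rose by 0.35 and 0.45 and VLDLR by 0.42 and 0.33 in mock and pollen cells, and the slide block ended the call of SESN2 in mock and that of VLDLR in pollen cells. A second, far dimmer probe of VLDLR gave -0.04 in mock and 0.36 in pollen cells and was not called. SLC7A5 rose by 0.59 ± 0.17 in mock cells (limma adjusted p = 0.0092), and was not called in pollen cells. Its heavy chain SLC3A2, DDIT3, CHAC1 and TRIB3, a pseudokinase induced by ATF4, were not called.

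The 2 genes called lower, PHGDH and ASNS, both make amino acids. From 2h25 min to 24 h, 14.9% of all probes were called lower in mock and 11.8% in pollen cells. No pattern is therefore read from these 2 calls. PHGDH, which opens serine synthesis, read 4.64, 4.87 and 4.86 in mock and 4.39, 4.90 and 4.73 in pollen cells at 2h25 min, and 4.30, 4.01 and 3.88 and 4.26, 3.999 and 4.08 at 24 h, with no overlap between the times. It fell by 0.73 ± 0.12 in mock (limma adjusted p = 9.32e-05) and by 0.56 ± 0.12 in pollen cells (limma adjusted p = 0.00162). ASNS, the asparagine synthetase, fell by 0.63 ± 0.13 (limma adjusted p = 0.00116) and 0.46 ± 0.13 (limma adjusted p = 0.0168), from 6.95, 7.14 and 7.21 to 6.53, 6.52 and 6.35 in mock cells. Another 2 probes of ASNS, both far dimmer, were not called. PSAT1, the next enzyme of serine synthesis, was -0.13 in mock and -0.18 in pollen cells and was not called.

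ATF4 mRNA was 0.28 ± 0.12 higher at 24 h in mock (limma adjusted p = 0.0835) and 0.25 ± 0.12 in pollen cells (limma adjusted p = 0.147), and was not called. None of the sensors XBP1, ATF6, ERN1 and EIF2AK3 was called in either exposure, with ERN1 at 0.41 ± 0.18 in mock cells (limma adjusted p = 0.104) and the others between -0.08 and 0.06 in mock cells. Of the 5 genes of ER-associated degradation and the translocon 3 were called higher in mock cells and 0 in pollen cells, beside 12.5% and 11.2% of all probes. The change in the effect of pollen between these times was called for 0 of the 5. These counts are therefore not read as a difference between the exposures. SERP1 rose by 0.50, EDEM1, which picks out misfolded glycoproteins, by 0.35 and SYVN1, the ligase, by 0.33 in mock cells, the first of them not with the slide block, and their values in pollen cells were 0.32, 0.22 and 0.21. HERPUD1, which holds the ligase complex together, was 0.08 and -0.01. SEL1L was 0.29 and 0.09, and a dimmer probe of it was called higher in both exposures, with 0.58 and 0.51.

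The medians of both branches were set side by side as a description. Of pollen against mock the median of the 11 ATF4 targets minus that of the 14 chaperones was 0.06, -0.06, -0.07, -0.07 and -0.05 in order of time. Each was smaller in size than the SDs of the mock and pollen arrays combined as the root of their summed squares (between 0.09 and 0.22). Taken instead as the difference between medians of single arrays, as plotted, the value was -0.18 at 6h50 min and between -0.03 and 0.07 at the other times. The combined SD of 0.11 at 6h50 min was taken against the mock means of that time and was not computed for the plotted medians. In mock cells the median change from 2h25 min to 24 h was 0.12 for the ATF4 targets and 0.48 for the chaperones, a difference of -0.37. The size depended on how the medians were taken: the 3 single arrays of 24 h, each against the means of 2h25 min, gave between -0.30 and -0.26, and the medians of single arrays, as plotted, gave -0.20. In pollen cells the medians were 0.14 and 0.35. The step to 55 min in mock cells gave 0.07, with single arrays between 0.04 and 0.14, and the step to 2h25 min gave -0.05, with single arrays between 0.01 and 0.06, so that its sign was not settled. The steps into and out of 6h50 min, which slide and scan confound, gave -0.26 and -0.31, and -0.08 and -0.12 from the medians of single arrays.

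**Figure D5:**
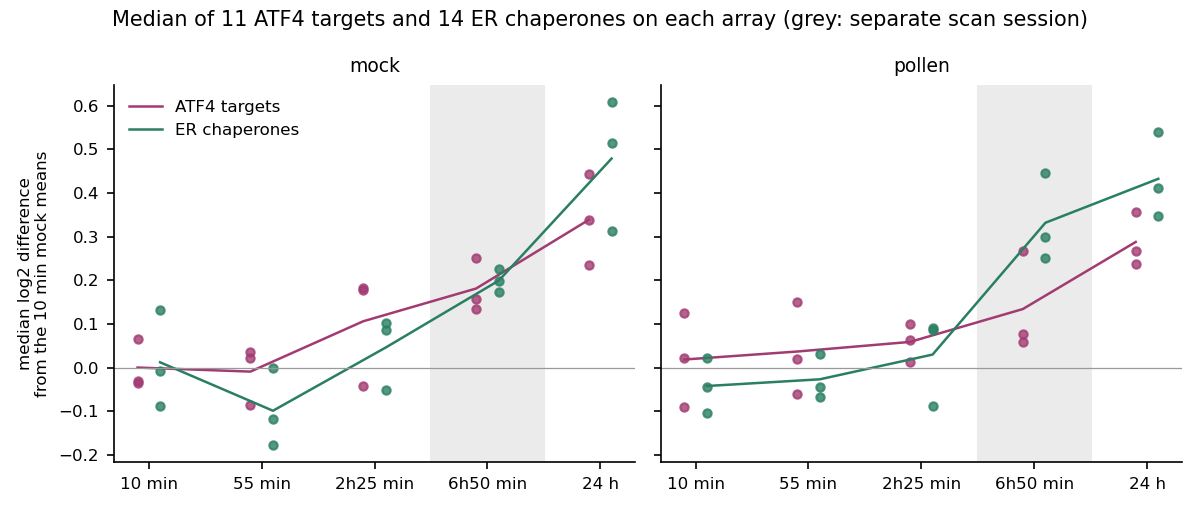
Median log2 difference from the 10 min mock means over the 11 ATF4 targets (purple) and the 14 ER chaperones (green), with each array as a point and the group means as lines, for mock and pollen cells. The grey band marks arrays of a separate scan session; both medians are highest at 24 h, with means of 0.34 and 0.48 in mock and 0.29 and 0.43 in pollen cells.

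Further genes of the pathway, 96 in all and all tested, were counted in the same way. None was called between pollen and mock at any time. The smallest unadjusted p was that of TARS1, a threonyl-tRNA synthetase, at 6h50 min, with a difference of 0.93 ± 0.23 (limma adjusted p = 0.14). Between 2h25 min and 24 h, 29 were called higher and 8 lower in mock cells, beside 12.5% and 14.9% of all probes, and 20 and 10 in pollen cells, beside 11.2% and 11.8%. Other ER folding, translocation and glycosylation genes had 15 of 28 called higher and 1 lower in mock cells and 12 and 0 in pollen cells, with medians of 0.39 and 0.31. Of 12 further genes of ER-associated degradation 6 and 4 were called higher and 0 lower. Other ATF4 and amino acid response genes had 5 of 37 called higher and 6 lower in mock cells and 3 and 8 in pollen cells, with medians of -0.06 and -0.08, shares near those of all probes in mock cells. Of 11 genes around eIF2 and its kinases 2 were higher and 1 lower in mock cells, and 0 and 2 in pollen cells, and of 8 that process the ER sensors 1 was higher in each exposure and 0 lower. SEC61B, a subunit of the translocon channel, rose by 1.22 ± 0.14 in mock and 0.92 ± 0.14 in pollen cells (limma adjusted p = 2.17e-06 and 8.36e-05). TXNDC5, a disulfide isomerase, rose by 1.08 ± 0.12 and 0.86 ± 0.12 (limma adjusted p = 1.21e-06 and 2.92e-05), and EDEM3, a mannosidase of ER-associated degradation, by 0.60 ± 0.08 and 0.51 ± 0.08.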

How the data were processed

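For each array the authors deposited spot intensities, from which Agilent Feature Extraction 11.0.1.1, per the labels, had subtracted background and removed trends across the array, without scaling between arrays. A table of log2 values, which the authors preprocessed with limma and deposited, was used as an alternative. Its columns of 24 h each matched another array of their own group, and the column of 55 min pollen replicate 1 was left out. In R 4.3.3 with limma 3.58.1, spots marked as uneven or outliers were dropped, log2 signals were reduced by the 75th percentile of each array over 33873 probes shared by both array layouts, and a probe was kept where some group had it well above background in 3 of 3 arrays. The 10 group means were then estimated from the 30 arrays with lmFit and eBayes, and p-values were adjusted over 32100 probes. The number of arrays limits the precision. The methods state separate repetitions, and p-values measure the spread between these arrays.

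A gene was read by its brightest probe. Fold changes with error were carried through every alternative for the 3 genes with the smallest p in each comparison of pollen with mock and each neighbouring step. The genes and lists were chosen with earlier results of these data known, and the comparison of 24 h with 2h25 min after the slides were seen. Deviations of mock and pollen arrays of equal replicate number correlated at over 0.1 in 3 of 3 pairs at 10 min, 2h25 min and 24 h, in 2 at 55 min and in 1 at 6h50 min. A dim area is a tile of 16 by 10 spots whose bright probes lay, at the median, more than 0.3 log2 units under their median on the arrays of the other times. Changes in the effect of pollen were called on the adjusted p alone. The fit was tested on simulated data. Alternatives were other scalings, background correction, array weights, the filter, probes averaged per gene, dim areas left out, replicate and slide blocks, single slides and each array left out.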

Additional observations from a re-analysis of the deposited data

How the results depend on the processing

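Of pollen against mock, 80 of 82 alternative fits called none of the 35 genes; at 6h50 min normexp with quantile normalization and the values as deposited called 1, SDF2L1. All 108 alternative fits of the change in the effect of pollen called 0. With the replicate block, pollen against mock called 0 at every time, and the steps into and out of 6h50 min and from 2h25 min to 24 h called 14, 13 and 17 in mock and 13, 9 and 10 in pollen cells; the block moved no count by over 1.5 times. Scaling by each array's own probes moved the median of all probes by -0.36 for pollen against mock at 55 min, where 1 array has another layout. It turned SYVN1 to -0.28, ATF4 to -0.25 and PSAT1 to -0.29 there and ATF4 from 10 min to 55 min in pollen cells to -0.10, and PSAT1 was -0.038 in the values as deposited. Under that scaling the genes called were 4 and 1 for the steps into and out of 6h50 min and 6 from 2h25 min to 24 h in mock cells, and 1, 1, 5, 1 and 1 for the steps in pollen cells in order of time with 2h25 min to 24 h last. Array weights called 5 genes in the step to 55 min in both exposures, 1 in the step to 2h25 min in both, 20 from 6h50 min to 24 h in mock and 19 from 2h25 min to 6h50 min in pollen cells. Normexp with quantile normalization called 1 in the step to 55 min in pollen cells, and no filter called 8 from 6h50 min to 24 h in mock cells. From 2h25 min to 24 h the shared slide alone called 7 in mock and 3 in pollen cells, and the slide block 6 in pollen cells. Steps of 6h50 min could not be fitted with the slide block.

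The median of ATF4 targets minus that of chaperones became 0.057 at 24 h for pollen against mock with array weights, and in mock cells with normexp and quantile normalization 0.25 from 10 min to 55 min, -0.11 from 6h50 min to 24 h and -0.48 from 2h25 min to 24 h, the last 2 being -0.13 and -0.48 in the values as deposited. From medians of single arrays, a setting chosen after seeing the data, it was -0.078, -0.122 and -0.20 for the steps into and out of 6h50 min and from 2h25 min to 24 h. Leaving out 1 array at a time, the genes called in mock cells lay between 6 and 14, 6 and 13, and 11 and 17 for the steps into and out of 6h50 min and from 2h25 min to 24 h, and in pollen cells between 9 and 14, 7 and 10, and 5 and 10; all other counts stayed 0. The difference of the medians of pollen against mock lay between -0.02 and 0.13, -0.07 and 0.00, -0.10 and 0.01, -0.10 and -0.04, and -0.08 and 0.01 in order of time. In mock cells it lay between 0.04 and 0.17, -0.10 and 0.00, -0.35 and -0.14, and -0.34 and -0.27 for neighbouring steps and between -0.38 and -0.28 from 2h25 min to 24 h. The causes were not tested, and the share of all probes called was not counted for the alternative fits. With 3 arrays per group, the median 95% interval of pollen against mock reached 0.30 log2 units to either side.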
